A study of Macaca mulatta with 45 samples.

Results

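The comparison described here set the subcutaneous fat of rhesus monkeys that ate a high-fat, high-sucrose diet with resveratrol against that of monkeys on the same diet without it, after 24 months. It holds 9 of the 45 arrays of the series, chosen by their titles alone: 4 arrays of the resveratrol group and 5 of the diet-only group, called HFS as in the labels. All monkeys were adult males, 7 to 13 years old when the study began, and 24 animals were divided among HFS (10), HFS with resveratrol (10) and a standard diet (4). The HFS diet drew 42% of its energy from fat and held about 27% sucrose, against 13% and under 5% in the standard diet, and calorie intake was the same in all groups. Resveratrol was given in a treat at a daily dose of 80 mg during year 1 and of 480 mg after that, and the other monkeys received a placebo treat. Each array of a group came from a different animal, according to the deposited column names. Subcutaneous fat from before the diets (10 resveratrol, 10 HFS and 4 standard-diet arrays), visceral fat at 24 months (4, 4 and 2 arrays) and subcutaneous fat of 2 standard-diet monkeys at 24 months served only as reference points.

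Resveratrol is a plant polyphenol. It is known for raising the activity of the deacetylase SIRT1 and of the energy sensor AMPK, directly or through other targets such as cAMP phosphodiesterases. White fat stores triglyceride in adipocytes that are embedded in a collagen matrix together with fibroblast-like progenitors, blood vessels and macrophages. In obesity this tissue is known for matrix accumulation, macrophage infiltration, NF-kappaB signalling and a weaker response to insulin. These are the processes by which the genes below are grouped.

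RNA was measured on Illumina bead arrays whose probes are annotated to human genes, so a monkey transcript that differs from its human probe gives a weaker signal. For this reason values are compared between arrays for the same gene and never between genes. Levels are normalized log2 intensities, and a difference is resveratrol minus HFS on the log2 scale with its standard error from the linear model. A gene passed when its adjusted p, from limma's moderated test with Benjamini-Hochberg adjustment over 12130 genes, was below 0.05. "Rose" and "fell" are used only of genes that passed. The tissue is a bulk sample, so fewer cells of a type and less RNA per cell cannot be told apart. The adipocyte genes LEP, FABP4, CIDEC, LPL, PLIN1 and RBP4 were detected on 9 of 9 arrays. ADIPOQ and CFD, which are also defining adipocyte genes, were detected on 0 of 9 arrays, SLC2A4 on 1 and TNF on 0, so these genes have no usable value here.

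The resveratrol arrays held more detected probes than the HFS arrays. At a detection p below 0.05, resveratrol replicates 1 to 4 had 17117, 18113, 17163 and 18673 probes, and HFS replicates 1 to 5 had 15782, 15993, 16322, 16251 and 15712. The groups did not overlap, and the means differed by 1754 probes (exact two-sided permutation test over 126 splits, p = 0.00794). The median raw signal was lower with resveratrol, 50.25 ± 1.60 (SD, n = 4) against 53.01 ± 1.29 (SD, n = 5), with p = 0.0397 in the same exact permutation test. Arrays of the same group correlated at 0.955 to 0.984 for HFS and 0.963 to 0.979 for resveratrol over 12130 genes, and arrays of different groups at 0.94 to 0.978. The number of detected probes therefore moved with the groups, and its part in the results below was not tested beyond the fit that holds it as a covariate.

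After 24 months, subcutaneous fat of the resveratrol monkeys had higher levels of 238 genes and lower levels of 33 than that of the HFS monkeys. The highest rises were those of PCOLCE2, which helps to process procollagen, COL3A1, the chain of type III collagen, and DUSP1, a phosphatase that switches off MAP kinases. The antioxidant enzyme catalase (CAT), the chromatin protein HMGB1 and the TGF-beta co-receptor TGFBR3 also rose. Among the genes that fell were the insulin-regulated kinase GSK3B, the transcription factor USF1 and the inositol transporter SLC5A3. Genes of fat storage, fat breakdown and macrophages had no member that passed.

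Of 12130 genes tested, 238 rose, or 1.96%, and 33 fell, or 0.272%, which is 2.23% together. Without the adjustment, 1611 genes had a p below 0.05. The genes that rose had a median difference of 0.83, from 0.26 to 2.12, with 80 of them above 1. The genes that fell had a median of -0.77, from -1.45 to -0.41, with 6 of them below -1. Over all genes tested the median difference was -0.04 and 44.6% of genes lay above 0. In 198 of the 238 genes that rose every resveratrol array was above every HFS array, against 4.67% of all genes. In 30 of the 33 that fell every resveratrol array was below every HFS array, against 3.89% of all genes. Both sets of genes were chosen by this same contrast on these arrays, so the lack of overlap is partly set by that choice. The split of calls depended on the scaling: after background correction with median scaling, which moved the median of all genes to 0.38, 1037 genes rose and 0 fell. Only 87 genes passed without resveratrol replicate 4, 84 of them higher and 3 lower, and 125 passed without resveratrol replicate 2.

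**Figure D1:**
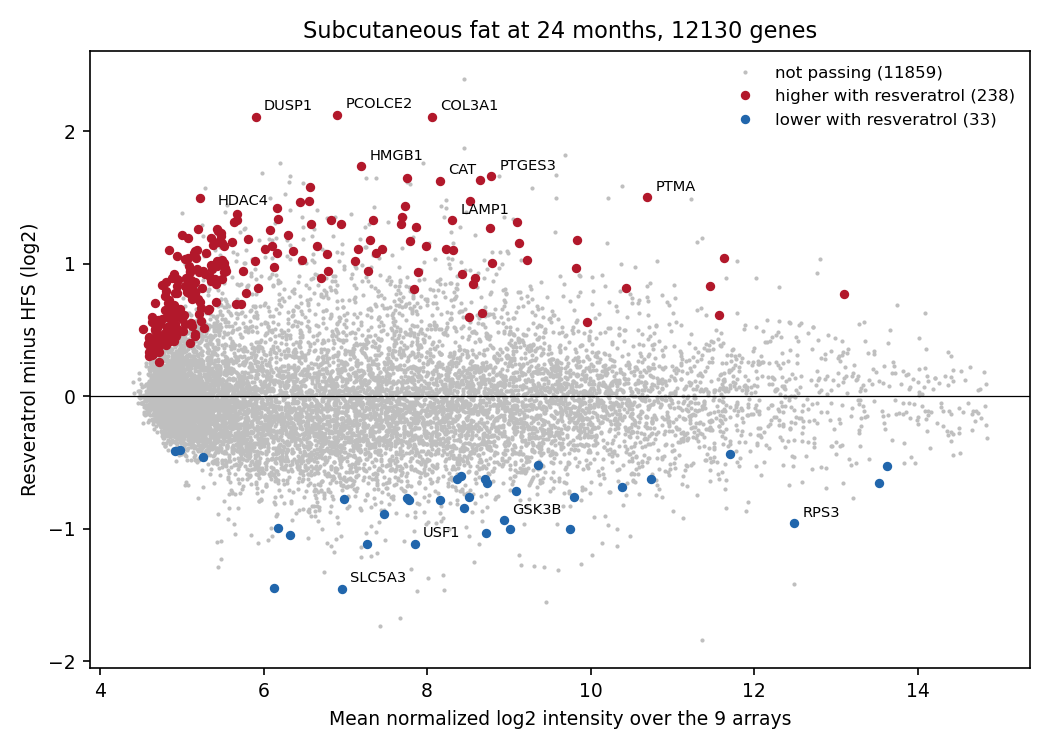
Difference between resveratrol and HFS (vertical, log2) against the mean normalized log2 intensity over the 9 arrays (horizontal) for the 12130 genes tested, with the 238 genes that rose in red, the 33 that fell in blue and all others in grey. Many of the genes that rose lie at the low end of the intensity scale, and the genes that fell lie mostly above it.

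Many of the rises were at the limit of detection. Of the 238 genes that rose, 110 were undetected on all 5 HFS arrays, as were 1014 of the 12130 genes tested. Another 58 were detected on some HFS arrays, and 70 on all 9 arrays. Of the genes that fell, 30 of 33 were detected on all 9 arrays. Among the 7954 genes detected on all 9 arrays, 70 rose and 30 fell. When the fit was restricted to probes detected on all 9 arrays, an alternative chosen after the data were seen, 42 genes rose and 14 fell. For a gene undetected on every HFS array the fold is given below as a lower bound, set against the lowest signal that counted as detected on each array. When the number of detected probes was held as a covariate, 35 genes rose and 0 fell. Of the 37 genes named below that rose, 12 passed in that fit: DUSP1 and genes undetected on every HFS array.

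The smallest p-values belonged to genes of this faint kind. VDAC2, a channel of the outer mitochondrial membrane, read 5.47, 5.81, 5.28 and 5.57 on the resveratrol arrays and 4.38, 4.65, 4.45, 4.53 and 4.34 on the HFS arrays, where it was undetected. Its level was at least 1.47-fold higher with resveratrol (adjusted p = 9.92e-08). HDAC4, a class IIa histone deacetylase, read 5.61, 5.86, 5.19 and 6.33 with resveratrol and 4.64, 4.55, 4.68, 4.46 and 4.41 on HFS. That is at least 1.70-fold higher. The groups did not overlap for either gene. ARRDC4, an arrestin-domain protein of membrane trafficking, was at least 1.37-fold higher. LEPROTL1, which acts on the surface level of receptors, was at least 1.36-fold higher. KHDC4, an RNA-binding protein linked to splicing, was at least 1.78-fold higher and PPIL1, a cyclophilin of the spliceosome, at least 1.19-fold higher. PSME3, an activator of the proteasome, was at least 1.32-fold higher. RAB9A, a GTPase of late endosomes, was detected on 3 of 4 resveratrol arrays and its difference was 0.76. PBDC1 had the widest margin of this kind, at least 2.11-fold. All 9 of these genes were undetected on every HFS array, and the resveratrol arrays, which detected more probes, sufficed to keep them in the test. KHDC4 was also detected on 1 of 2 standard-diet arrays, which sufficed as well. A gene kept through the resveratrol arrays alone had to be higher with resveratrol. The p-values of these 9 genes do not support a difference beyond the one in detection, whose part was not tested.

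Among 20 matrix processing enzymes and inhibitors tested, PCOLCE2, TIMP2 and P4HA1 rose, 0 fell and 17 did not pass, with a list median of 0.18. PCOLCE2, an enhancer of procollagen C-proteinase, read 7.16, 8.36, 7.58 and 9.21 on the resveratrol arrays and 6.57, 5.73, 5.85, 5.65 and 5.97 on the HFS arrays. It rose 4.36-fold (2.12 ± 0.51, adjusted p = 0.0163), and every resveratrol array was above every HFS array. COL3A1, the fibrillar collagen of type III, read 7.94, 9.86, 8.96 and 10.16 with resveratrol and 7.05, 7.28, 8.28, 5.81 and 7.19 on HFS. It rose 4.31-fold (2.11 ± 0.53, adjusted p = 0.0254), although resveratrol replicate 1 lay below HFS replicate 3. TIMP2, an inhibitor of matrix metalloproteinases, read 11.98, 11.98, 11.86 and 13.00 with resveratrol and 11.02, 11.15, 11.43, 11.26 and 10.96 on HFS. It rose 2.06-fold (1.04 ± 0.24, adjusted p = 0.0124), and a second TIMP2 probe gave 1.20 ± 0.31. P4HA1, the catalytic subunit of prolyl 4-hydroxylase, which collagen needs for a stable triple helix, rose by 1.17 ± 0.29 (adjusted p = 0.0208). PPIB, an endoplasmic reticulum cyclophilin that assists collagen folding, rose 2.78-fold, from 7.87 ± 0.51 (SD, n = 5) to 9.34 ± 0.13 (SD, n = 4). PXDN, a peroxidase that crosslinks collagen of basement membranes, rose 2.75-fold.

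Most genes of the matrix did not pass. The collagen-modifying enzymes PLOD1 (-0.13), PLOD2 (-0.10) and P4HA2 (0.10), the collagen chaperone SERPINH1 (-0.11) and the crosslinking enzyme LOX (0.38) were among them, and they were picked after their values were seen. Of 17 collagen chains, COL3A1 alone rose and 0 fell, with a median of 0.13, and the basement membrane chain COL4A1 gave -0.50 ± 0.17 (adjusted p = 0.126). Of 26 matrix glycoproteins and proteoglycans 0 passed, and the list median was 0.08. The member nearest to passing was LUM, a small proteoglycan that organises collagen fibrils, which read 8.27, 9.93, 9.79 and 10.00 with resveratrol and 7.89, 8.75, 7.84, 6.33 and 7.32 on HFS (1.87 ± 0.58, adjusted p = 0.0875). MFAP5, a microfibril protein of adipose progenitors, gave 0.93 ± 0.41 (adjusted p = 0.292). Without resveratrol replicate 4, PCOLCE2 (1.75), COL3A1 (1.80), TIMP2 (0.78), P4HA1 (0.92), PPIB (1.42) and PXDN (1.38) no longer passed. Without resveratrol replicate 2 the same was so of PCOLCE2, COL3A1, P4HA1 and PPIB, without HFS replicate 4 of COL3A1, P4HA1 and PPIB, and without HFS replicate 5 of PPIB.

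Components of TGF-beta signalling, the pathway best known for driving matrix synthesis, were represented by its co-receptor and by a signal transducer. TGFBR3, or betaglycan, presents TGF-beta to the signalling receptors. It read 6.82, 7.81, 7.20 and 7.93 with resveratrol and 6.12, 6.33, 5.43, 5.85 and 5.61 on HFS, with no overlap, and rose 2.98-fold (1.57 ± 0.34, adjusted p = 0.00685). SMAD3, which carries the receptor signal to the nucleus, read 6.21, 5.83, 5.73 and 5.86 against 5.20, 4.78, 4.81, 4.86 and 5.09. It rose 1.95-fold (0.96 ± 0.16, adjusted p = 0.000283) and was detected on only 2 of the 5 HFS arrays. In all, 2 of 15 genes of the pathway rose and 0 fell, with a median of 0.07. SMAD3 passed in all 9 fits that left out an array, and TGFBR3 in 8, giving 1.41 without resveratrol replicate 4. Neither gene passed with the number of detected probes as a covariate.

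**Figure D2:**
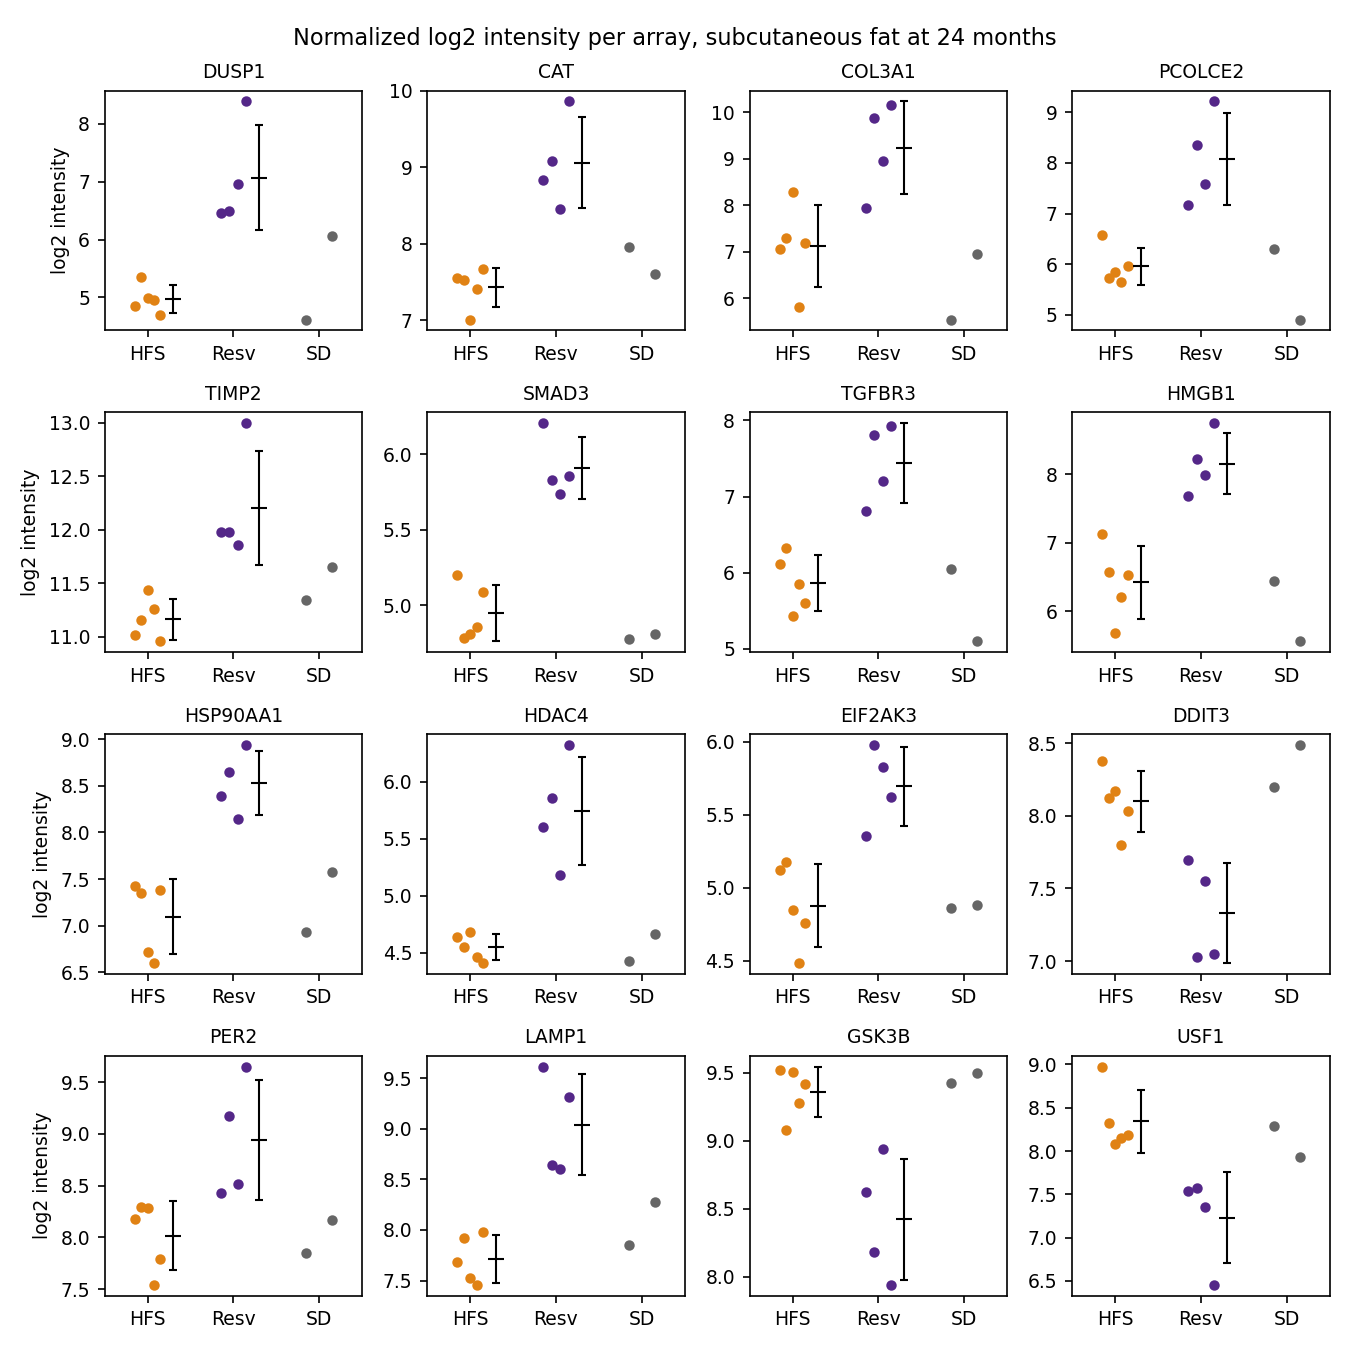
Normalized log2 intensity of 16 genes on each array of subcutaneous fat at 24 months, with HFS (5 arrays), resveratrol (4 arrays) and the standard diet (SD, 2 arrays) side by side. Points are arrays and bars are the mean with its SD. For DUSP1 the resveratrol arrays lie between 6.45 and 8.39 and the HFS arrays between 4.69 and 5.35.

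DUSP1 had the most stable of the rises above 2 on the log2 scale. This phosphatase removes the activating phosphates of the kinases p38, JNK and ERK and is itself a gene that stress and glucocorticoids induce. It read 6.45, 6.49, 6.96 and 8.39 on the resveratrol arrays and 4.84, 5.35, 4.98, 4.96 and 4.69 on the HFS arrays. The rise was 4.31-fold (2.11 ± 0.27, adjusted p = 6.49e-06), the lowest resveratrol array was above the highest HFS array, and the gene was detected on 2 of 5 HFS arrays. It passed in all 9 fits that left out an array, with values of 1.67 to 2.31. No other dual-specificity phosphatase passed among 11 tested, whose median was -0.02. Of 20 immediate early genes 0 passed, with a median of 0.23. NR4A2, an orphan nuclear receptor of this class, gave 1.09 ± 0.43 (adjusted p = 0.217), and FOS, a subunit of AP-1, gave 1.16 ± 0.65 (adjusted p = 0.469). Of 14 genes of the MAP kinase cascade 0 passed, and their median was -0.08. Among 11 genes of glucocorticoid activation and targets, DUSP1 alone rose and 0 fell, with a median of 0.16.

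Single genes of oxidative stress and protein folding rose. CAT, which breaks down hydrogen peroxide in peroxisomes, read 8.84, 9.08, 8.46 and 9.86 with resveratrol and 7.55, 7.53, 7.01, 7.41 and 7.67 on HFS. It rose 3.09-fold (1.63 ± 0.40, adjusted p = 0.0216) with no overlap of the groups. It was the only gene of 18 NRF2 and antioxidant genes to pass, and the list median was 0.01. PTGES3, the HSP90 co-chaperone p23, read 9.23, 10.04, 9.35 and 10.22 against 8.41, 8.31, 7.62, 7.69 and 8.20. It rose 3.16-fold (1.66 ± 0.40, adjusted p = 0.0163), again without overlap. HSP90AA1, the inducible form of HSP90, rose 2.70-fold (1.43 ± 0.39, adjusted p = 0.0385), but of its other probes one gave 1.62 ± 0.56 and another -0.17 ± 0.21, and neither passed. Of 19 heat shock proteins and co-chaperones these 2 rose and 0 fell, with a median of 0.05. The co-chaperone DNAJB4 gave 0.91 ± 0.33 (adjusted p = 0.165). The same 2 genes also stand in the list for the aryl hydrocarbon receptor, whose complex they form, where they are 2 of 6 genes tested, while 1.96% of all genes rose. They are the same calls counted again, in a list compiled with earlier results of these data known.

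The unfolded protein response of the endoplasmic reticulum had passing members in both directions. EIF2AK3 encodes PERK, the kinase that slows translation when unfolded protein accumulates. It read 5.36, 5.98, 5.82 and 5.62 with resveratrol and 5.12, 5.18, 4.85, 4.49 and 4.76 on HFS, where 2 of 5 arrays detected it, and rose 1.76-fold (0.82 ± 0.18, adjusted p = 0.00735). DDIT3 encodes CHOP, a transcription factor that acts late in the PERK branch. It read 7.69, 7.03, 7.55 and 7.05 with resveratrol and 8.38, 8.12, 8.17, 7.80 and 8.03 on HFS, and fell 1.71-fold (-0.77 ± 0.21, adjusted p = 0.0469). The groups did not overlap for either gene. PDIA4, a disulfide isomerase that folds secreted proteins, was detected on 0 of 5 HFS arrays and 3 of 4 resveratrol arrays and passed as higher (adjusted p = 7.76e-05). The resveratrol arrays sufficed to keep it in the test, so its p-value does not support a difference beyond the one in detection. In all 2 of 16 genes of this response rose, PDIA4 among them, and 1 fell, with a median of -0.13. Without resveratrol replicate 4, CAT (1.36), PTGES3 (1.49), HSP90AA1 (1.30) and DDIT3 (-0.68) no longer passed. Without resveratrol replicate 2, the same was so of all 4 and of EIF2AK3 (0.72). CAT and PTGES3 also missed without HFS replicate 3 and PTGES3 without HFS replicate 4, while DDIT3 passed only in 3 of the 9 fits that left out an array and HSP90AA1 in 2.

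Inflammatory genes had few passing members. REL, a subunit of NF-kappaB that is active in immune cells, read 6.90, 6.97, 7.15 and 7.15 with resveratrol and 5.80, 5.92, 5.89, 5.92 and 6.56 on HFS. It rose 2.04-fold (1.03 ± 0.24, adjusted p = 0.0151), the only gene of 16 in the NF-kappaB pathway to pass, and the list median was 0.18. NFKB1, its best known partner, gave 0.22 ± 0.26. HMGB1 is a chromatin protein that cells release as a danger signal. It read 7.68, 8.21, 7.98 and 8.74 against 7.13, 6.57, 5.68, 6.21 and 6.52, and rose 3.33-fold (1.73 ± 0.40, adjusted p = 0.0131), with no overlap. HMGB1 has many near-identical processed copies in primate genomes, so its probe may read more than this gene. No other gene among 16 inflammatory cytokines and innate sensors passed, and the list median was 0.18. PTGS2, the inducible cyclooxygenase, gave 1.19 ± 0.37 (adjusted p = 0.0904). TLR2, a receptor for bacterial lipoproteins, was detected on 0 of 5 HFS and 3 of 4 resveratrol arrays and did not pass (adjusted p = 0.0813). The chemokine CXCL8 gave 0.78 ± 0.29 (adjusted p = 0.181), and CCL2, which draws monocytes into fat, gave 0.61 ± 0.73.

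CD55, which protects cells from complement, was undetected on every HFS array and read 4.57, 5.80, 5.30 and 6.17 with resveratrol, where it was detected on 3 of 4 arrays and not on replicate 1. It passed as higher (adjusted p = 1.49e-05), with no fold given for that reason, and was the only gene of 14 in the complement list to pass. The resveratrol arrays sufficed to keep it in the test, so its p-value does not support a difference beyond the one in detection. The SD of CD55 was 0.69 (n = 4) with resveratrol and 0.05 (n = 5) on HFS, while its standard error took its spread from all 35 subcutaneous arrays. With only the 9 arrays compared, CD55 did not pass. On the lower side stood DTX3L, a ubiquitin ligase of the interferon response. It read 5.22, 5.60, 6.47 and 5.71 with resveratrol and 7.11, 7.13, 6.11, 6.27 and 7.33 on HFS, and fell 2.06-fold (-1.04 ± 0.27, adjusted p = 0.0328), although resveratrol replicate 3 overlapped the HFS arrays. It was the only 1 of 16 interferon genes to pass, the list median was -0.20, and the antiviral gene IFI6 gave -1.26 ± 0.42 (adjusted p = 0.115). DTX3L did not pass in 6 of the 9 fits that left out an array, REL did not pass without resveratrol replicate 4, and HMGB1 did not pass without that array, without resveratrol replicate 2 or without HFS replicate 3.

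Of 12 chromatin genes tested, HMGB1 and SET rose, 0 fell and 10 did not pass, with a median of 0.23. SET, an inhibitor of histone acetylation and of the phosphatase PP2A, rose 1.85-fold, from 8.20 ± 0.26 (SD, n = 5) to 9.09 ± 0.27 (SD, n = 4) with adjusted p = 0.0468. PTMA, or prothymosin alpha, which binds histone H1, is not on that list. It read 11.06, 11.88, 11.02 and 12.14 with resveratrol and 10.46, 10.36, 9.48, 9.92 and 9.90 on HFS, a rise of 2.83-fold with adjusted p = 0.0494. Both genes have processed copies that their probes may also read. SET and PTMA each failed to pass in 7 of the 9 fits that left out an array. TUBA3E, an alpha-tubulin whose sequence is nearly shared with other tubulin genes, rose 3.12-fold, and SH3BGRL, a small thioredoxin-fold protein, rose 3.10-fold. Neither of these passed without resveratrol replicate 4 (1.47 and 1.45).

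The clock genes PER2 and NR1D2, both of which repress transcription in the circadian cycle, rose. PER2 read 8.43, 9.18, 8.51 and 9.65 with resveratrol and 8.17, 8.29, 8.29, 7.54 and 7.79 on HFS, a rise of 1.898-fold (0.92 ± 0.23, adjusted p = 0.0181). NR1D2, or REV-ERB-beta, read 5.44, 5.90, 6.07 and 6.55 against 5.21, 5.35, 4.95, 4.96 and 5.02, a rise of 1.85-fold (0.89 ± 0.22, adjusted p = 0.021). The groups did not overlap for either gene. The other PER2 probes gave -0.20 ± 0.11 and 0.05 ± 0.13, so the rise rested on a single PER2 probe, and with the mean over its probes PER2 gave 0.26 and did not pass. Of 14 clock genes these 2 rose and 0 fell, with a median of 0.22. Without resveratrol replicate 4 (0.69 for PER2 and 0.70 for NR1D2), resveratrol replicate 2 or HFS replicate 4 neither passed, nor did PER2 without HFS replicate 5 or NR1D2 without HFS replicate 3.

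Genes of the lysosome and of vesicle traffic had passing members in both directions. LAMP1, the main glycoprotein of the lysosomal membrane, read 9.61, 8.65, 8.60 and 9.31 with resveratrol and 7.68, 7.92, 7.52, 7.46 and 7.98 on HFS. It rose 2.51-fold (1.33 ± 0.24, adjusted p = 0.000832) and passed in all 9 fits that left out an array. LAMP1 did not pass with the number of detected probes as a covariate. COPA, the alpha subunit of the coat of Golgi vesicles, read 9.42, 9.57, 9.45 and 9.45 against 8.64, 8.54, 7.71, 7.79 and 8.37. It rose 2.40-fold (1.27 ± 0.29, adjusted p = 0.013), and the resveratrol arrays differed by less than the HFS arrays did. BET1, a SNARE of transport from the endoplasmic reticulum to the Golgi, passed as higher (adjusted p = 0.00255), but it was detected on 0 of 5 HFS arrays and 2 of 4 resveratrol arrays, so no fold is given. The resveratrol arrays sufficed to keep BET1 in the test, so its p-value does not support a difference beyond the one in detection. SACM1L, the phosphatase of phosphatidylinositol 4-phosphate in these membranes, rose 2.77-fold (1.47 ± 0.35, adjusted p = 0.0161).

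USE1, a SNARE of the return route from the Golgi to the endoplasmic reticulum, read 6.95, 6.70, 7.02 and 5.93 with resveratrol and 7.49, 7.72, 7.61, 8.03 and 7.97 on HFS. It fell 2.17-fold (-1.12 ± 0.28, adjusted p = 0.0212), with no overlap. FIG4, a phosphatase of an endosomal phosphoinositide, fell 1.79-fold (-0.84 ± 0.20, adjusted p = 0.0128). LAMTOR4, a subunit of the complex that anchors mTORC1 to lysosomes, fell 2.00-fold, from 10.19 ± 0.19 (SD, n = 5) to 9.19 ± 0.72 (SD, n = 4), with the lowest value, 8.16, in resveratrol replicate 4. Of 22 genes of transport between the endoplasmic reticulum and the Golgi 2 rose and 1 fell, with a median of 0.01, and of 20 autophagy and lysosome genes 1 rose and 0 fell. Without resveratrol replicate 4, COPA (1.27), SACM1L (1.34), USE1 (-0.87), FIG4 (-0.68) and LAMTOR4 (-0.65) no longer passed, nor did COPA, SACM1L and USE1 without resveratrol replicate 2. COPA also missed without HFS replicate 3, and USE1 without HFS replicate 4 or 5.

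In the insulin pathway GSK3B alone passed. This kinase holds glycogen synthase inactive until insulin signalling switches it off. It read 8.62, 8.18, 8.94 and 7.94 with resveratrol and 9.52, 9.08, 9.51, 9.28 and 9.42 on HFS. It fell 1.91-fold (-0.94 ± 0.20, adjusted p = 0.00623), and every resveratrol array was below every HFS array. PDPK1, the kinase that activates AKT, gave 0.41 ± 0.16 (adjusted p = 0.2), and its arrays did not overlap either, at 9.20 to 9.55 against 8.89 to 9.09. IRS1, the docking protein of the insulin receptor, gave -0.14 ± 0.32. Of 20 genes of the pathway 0 rose and 1 fell, with a median of -0.09. GSK3B passed in 8 of the 9 fits that left out an array and gave -0.78 without resveratrol replicate 4 (adjusted p = 0.0774). With only the 9 arrays compared, GSK3B did not pass.

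The proposed targets of resveratrol were not among the genes that passed. SIRT1 read 5.97, 7.25, 6.76 and 7.49 with resveratrol and 5.29, 6.28, 5.11, 5.57 and 5.55 on HFS (1.31 ± 0.46, adjusted p = 0.148), so resveratrol replicate 1 lay below HFS replicate 2. PPARGC1A, the coactivator of mitochondrial genes that SIRT1 deacetylates, gave -0.80 ± 0.47 (adjusted p = 0.505). Of 13 genes of sirtuins, AMPK and PGC-1 0 passed, with a median of -0.05. Of 16 genes of cAMP phosphodiesterases and signalling 0 passed, with a median of 0.07, and of 7 in the estrogen receptor list 0 passed, with a median of -0.03. Of 16 genes often linked to resveratrol or to the state of fat, 12 could be tested, 1 passed (GSK3B) and 3 had an unadjusted p below 0.05.

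Transcription factors and markers of adipocytes gave 1 passing gene. USF1, which activates lipogenic genes through E-boxes, read 7.54, 7.57, 7.35 and 6.46 with resveratrol and 8.97, 8.32, 8.09, 8.15 and 8.18 on HFS. It fell 2.16-fold (-1.11 ± 0.28, adjusted p = 0.0247), with no overlap, and a second USF1 probe gave -0.88 ± 0.31. Of 17 adipocyte transcription factors 0 rose and 1 fell, with a median of -0.21. CEBPB, which starts the adipogenic programme, gave -0.90 ± 0.35 (adjusted p = 0.2), and PPARG, its master regulator, gave -0.14 ± 0.23. USF1 did not pass without resveratrol replicate 4 (-0.85) or without HFS replicate 1 (-0.95).

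Of 11 adipocyte markers tested 0 passed, and their median was -0.18. LEP, the satiety hormone leptin, read 10.67, 10.83, 10.11 and 10.16 with resveratrol and 10.24, 9.87, 10.00, 9.95 and 9.74 on HFS (0.49 ± 0.22, adjusted p = 0.315). The fatty acid carrier FABP4 gave -0.28 ± 0.17 (adjusted p = 0.497), and its groups did not overlap, at 14.13 to 14.45 against 14.52 to 14.62. RBP4, the retinol carrier that fat secretes, gave -0.72 ± 0.41. LPL, the lipase that takes up fatty acids from lipoproteins, read 12.44, 4.90, 11.66 and 12.35 with resveratrol and 12.56, 12.67, 11.35, 12.33 and 11.97 on HFS. Its difference of -1.84 ± 1.48 rested on resveratrol replicate 2, without which it was -0.02.

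Pathways of lipid handling and of mitochondria also had few or no passing genes. The lists of fatty acid and triglyceride synthesis (17 genes, median 0.09), lipolysis and lipid droplets (16, -0.09), cholesterol synthesis and uptake (13, 0.04) and fatty acid oxidation and uncoupling (15, -0.03) had 0 passing members each. Among them the lipid droplet coat protein PLIN3 gave 0.98 ± 0.45 (adjusted p = 0.329), and ECHS1, an enzyme of beta-oxidation, -0.74 ± 0.26 (adjusted p = 0.144). NDUFB5, an accessory subunit of complex I, read 10.67, 11.05, 10.998 and 10.84 with resveratrol and 10.41, 10.31, 9.66, 9.70 and 10.28 on HFS, and rose 1.76-fold (0.82 ± 0.22, adjusted p = 0.034). The other 20 respiratory chain genes did not pass and the list median was -0.17. COX4I1, a subunit of cytochrome oxidase, gave -0.47 ± 0.15 (adjusted p = 0.0939), and SDHC, a membrane anchor of complex II, gave -0.83 ± 0.28 (adjusted p = 0.134). NDUFB5 missed the threshold without HFS replicate 3 or 4 and without resveratrol replicate 2, 3 or 4.

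The remaining genes with large falls were of varied function. SLC5A3, which imports myo-inositol with sodium, read 5.89, 6.15, 7.03 and 5.55 with resveratrol and 7.75, 7.79, 8.51, 6.66 and 7.31 on HFS. It had the largest fall, 2.73-fold (-1.45 ± 0.39, adjusted p = 0.0388), but resveratrol replicate 3 lay above HFS replicate 4, and a second probe gave -0.10 ± 0.12. RSPRY1, a protein with RING and SPRY domains, read 7.86, 8.78, 8.68 and 8.49 against 9.57, 9.64, 9.49, 9.02 and 9.55. It fell 2.00-fold (-0.999 ± 0.19, adjusted p = 0.00206), and ALKBH8, which modifies the wobble base of transfer RNA, fell 1.85-fold (-0.89 ± 0.19, adjusted p = 0.00633). RSPRY1 and ALKBH8 are the only named genes with falls that passed in all 9 fits that left out an array. With only the 9 arrays compared, RSPRY1 passed and ALKBH8 did not. Neither passed with the number of detected probes as a covariate. CEP170P1, a pseudogene whose probe may also read its parent gene, fell 2.72-fold, from 6.76 ± 0.59 (SD, n = 5) to 5.32 ± 0.12 (SD, n = 4). TXLNG, a syntaxin-binding protein, fell 2.04-fold and overlapped between groups, and its second probe gave 0.05 ± 0.32. TCL1B, a relative of the AKT coactivator TCL1A, fell 1.99-fold. HSD17B10, a mitochondrial dehydrogenase that also serves in transfer RNA processing, fell 1.72-fold, with -0.59 ± 0.22 at a second probe. MED8, a subunit of Mediator, fell 1.72-fold, and its other probes gave 0.15 ± 0.25 and -0.38 ± 0.19. SLC5A3 and TXLNG each missed the threshold in 7 of the 9 fits that left out an array, CEP170P1 and TCL1B in 6, HSD17B10 in 7 and MED8 in 5, and in each case those without resveratrol replicates 2 and 4 were among them.

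Among genes of protein synthesis, RPS3 and EIF3D fell. RPS3, a protein of the small ribosomal subunit, read 12.14, 11.96, 12.61 and 11.11 with resveratrol and 13.02, 12.72, 12.88, 13.18 and 12.77 on HFS. It fell 1.94-fold (-0.96 ± 0.26, adjusted p = 0.0442), and it missed the threshold in 8 of the 9 fits that left out an array. Of 29 ribosomal protein genes 0 rose and 1 fell, 9 lay above 0 against 44.6% of all genes, and the median was -0.20. RPS20 gave -0.52 ± 0.16 (adjusted p = 0.0939) and 0.17 under median scaling. RPL7A, of the large subunit, gave 0.75 ± 0.27 (adjusted p = 0.165) with no overlap of the groups. Ribosomal protein genes have many processed copies, so these values may mix several loci. EIF3D, a subunit of the initiation factor that loads the small ribosomal subunit, read 10.45, 10.33, 10.56 and 10.22 against 10.78, 11.15, 11.03, 11.15 and 10.98. It fell 1.54-fold (-0.63 ± 0.15, adjusted p = 0.0209), the only gene of 23 translation factors to pass, and missed without resveratrol replicate 2 or 4 and without HFS replicate 2 or 4. Under median scaling none of the 17 named genes with falls passed, and without resveratrol replicate 4 RSPRY1 and ALKBH8 alone did.

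Over all 50 gene lists, which hold 745 tested genes, 22 genes rose (2.95%) and 7 fell (0.94%), against 1.96% and 0.272% of all genes. Passing members stood in 23 of the lists and none in the other 27. No list had more than 3 passing members. The lists were compiled with earlier results of these data known, so these shares are a description.

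**Figure D3:**
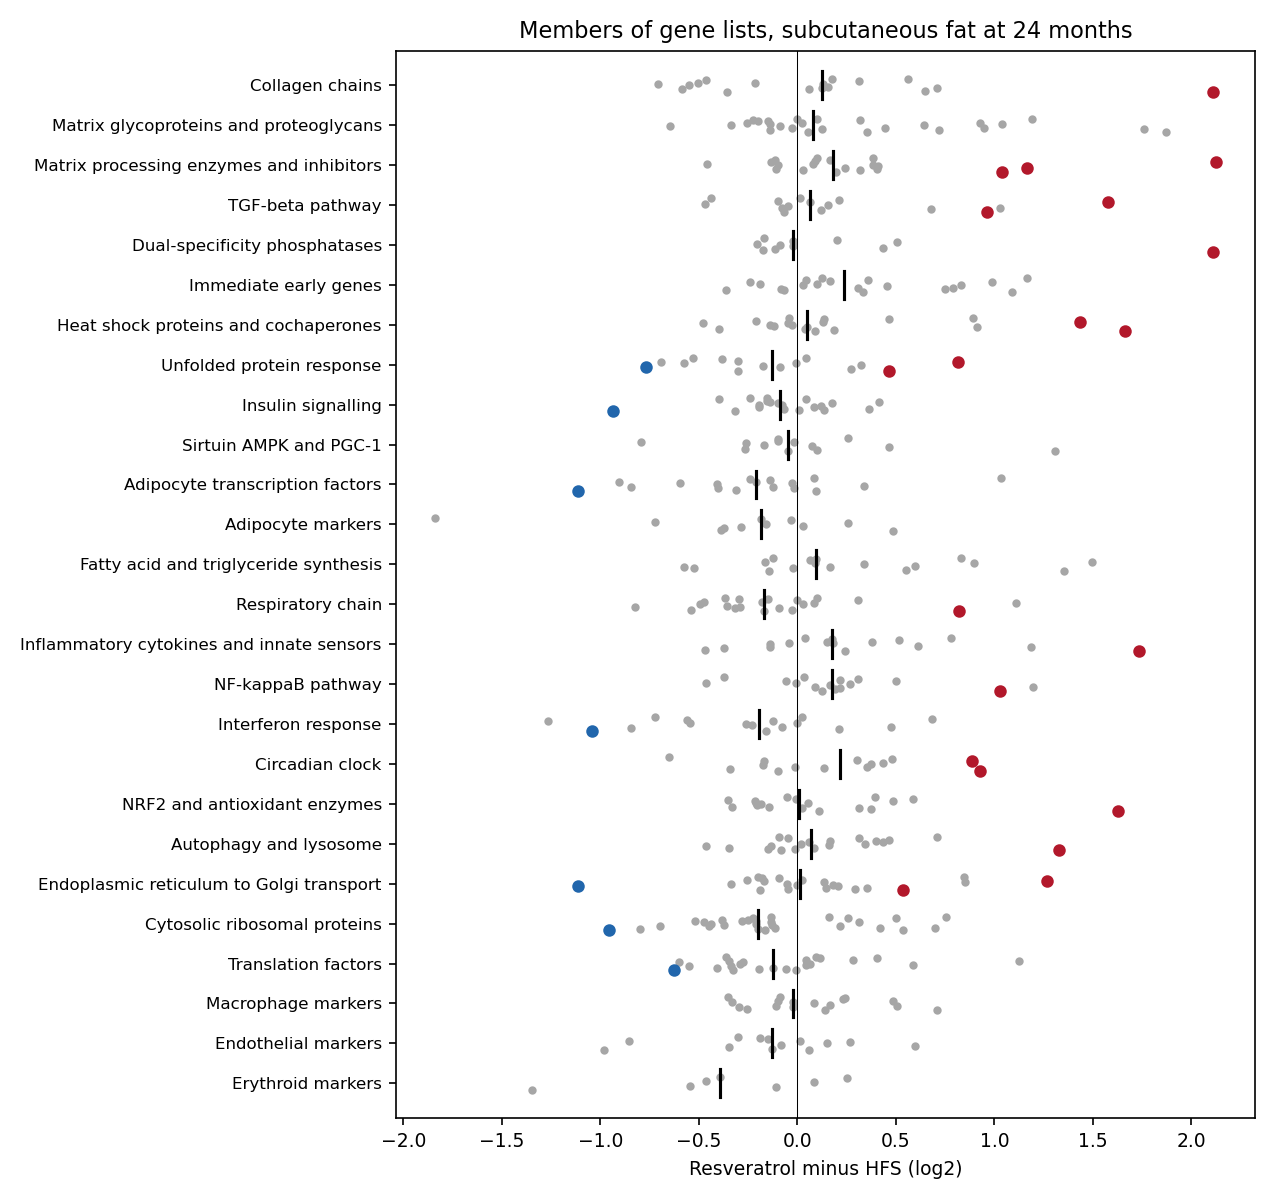
Difference between resveratrol and HFS (horizontal, log2) for each tested member of selected gene lists (vertical), with genes that rose in red, genes that fell in blue, others in grey, and a black bar at each list's median. Each list holds at most 3 coloured points, and the medians run from -0.39 for erythroid markers to 0.23 for immediate early genes.

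Lists that mark other cell types had no passing member. Of 17 macrophage markers 0 passed, the median was -0.02, and the mean level of the list was 9.32 to 9.68 on the resveratrol arrays and 8.98 to 9.75 on the HFS arrays. The phagocyte glycoprotein CD68 gave 0.50 ± 0.64, and the scavenger receptor CD163 gave 0.71 ± 0.53. Fibroblast and preadipocyte markers (14 genes, median 0.11) had mean levels of 10.53 to 11.53 with resveratrol and 10.46 to 11.19 on HFS. Endothelial markers (13 genes, -0.13) had 8.37 to 8.58 and 8.08 to 9.13, and smooth muscle and pericyte markers (14 genes, 0.09) had 7.78 to 8.71 and 7.68 to 9.03. Adipocyte markers had 8.67 to 10.20 with resveratrol and 9.61 to 10.06 on HFS, a range that includes the low LPL value.

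The ranges of the 2 groups overlapped for all these lists. T and natural killer cell markers (15 genes, median -0.11), B cell and plasma cell markers (7, -0.17), neutrophil and mast cell markers (10, -0.02), genes of MHC class II (10, -0.20) and cell cycle genes (24, -0.25) had 0 passing members. Markers of tissues that could be sampled along with fat were likewise without a call: skeletal muscle (6 genes, -0.23), skin (3, -0.26), nerve (5, 0.02) and red blood cells (7, -0.39).

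Genes measured by more than 1 probe gave a partial check of the calls. Of the 271 genes that passed, 44 had other probes that were kept, 52 in all. For the genes that rose, 32 of 42 such probes were above 0, with a median of 0.36, while 55.2% of all 3634 such probes were above 0, with a median of 0.03. For the genes that fell, 5 of 10 were below 0, with a median of -0.04. These probes were tested in a separate fit of all 21710 kept probes, with the adjustment over those probes and not over the 12130 genes. Of the 52 probes 11 passed there in the same direction as the gene's call and 1 in the opposite direction. That one measured SPOP, a substrate adaptor of a ubiquitin ligase, and gave 0.56 ± 0.15 (adjusted p = 0.0221) where the call was lower. SPOP was singled out after its values were seen. Of 5946 probes without a single gene symbol, 176 were higher and 12 lower in that fit of all kept probes. In the main fit 238 of 12130 genes were higher and 33 lower.

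The 2 standard-diet monkeys measured at 24 months give a reference without a test. Their mean was nearer to the HFS mean than to the resveratrol mean for 234 of the 238 genes that rose and 32 of the 33 that fell. Both standard-diet arrays lay below all resveratrol arrays for 211 of the 238. For 26 of the 33 genes that fell both lay above all resveratrol arrays. CAT, for example, read 7.95 and 7.61 on the standard diet, GSK3B read 9.43 and 9.50, and TIMP2 read 11.34 and 11.66. DUSP1 read 4.62 and 6.05, the second of which approaches the lowest resveratrol array at 6.45. The genes were chosen by the comparison of the other 2 groups, so a position near HFS is partly set by that choice.

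Before the diets began, the animals later given resveratrol and those later given HFS alone did not differ in any gene that passed. These groups hold 10 monkeys each, of which 4 given resveratrol and 5 given HFS were also measured at 24 months. With 10 arrays in each group, limma called 0 of 12130 genes, and 288 had an unadjusted p below 0.05. In each group 3 arrays belong to one set of arrays and 7 to another, which this fit did not separate. With array set as a covariate the count was still 0, and limma's smallest adjusted p was 0.324. The genes that rose at 24 months had a median baseline difference of 0.00 and those that fell 0.05, against -0.01 for all genes. Of the 271 genes 3, or 1.11%, had an unadjusted baseline p below 0.05, against 2.37% of all genes. DUSP1 gave -0.05 ± 0.18 at baseline, COL3A1 -0.33 ± 0.36, CAT 0.09 ± 0.27 and GSK3B 0.09 ± 0.13.

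The change from baseline, tested as the 24-month difference minus the baseline difference, passed for 102 genes (0.841%), 94 higher (0.775%) and 8 lower (0.066%). All 94 and all 8 were among the genes called at 24 months. The genes were selected on one side of this contrast, so its size is partly set by that choice. It was 2.15 for DUSP1 (adjusted p = 0.000205), 1.47 for LAMP1 (adjusted p = 0.00466), 0.92 for SMAD3 (adjusted p = 0.00905) and -1.03 for GSK3B (adjusted p = 0.0278). The main fit did not link arrays of the same monkey, and with the animal as a random block the count of 102 became 156. In the fit without that block it was 42 without resveratrol replicate 4 and 52 without resveratrol replicate 2. In the main fit the change did not pass for COL3A1 (2.44, adjusted p = 0.0641), PCOLCE2 (2.24, adjusted p = 0.0847) or CAT (1.54, adjusted p = 0.149). Most baseline arrays belong to another set of arrays, recognised by the decimals and brightness of the deposited intensities, while all 24-month subcutaneous arrays belong to a single set. In the 3 resveratrol and 3 HFS monkeys measured at both times within that set, the genes that rose had a median difference of 0.09 at baseline and 0.71 at 24 months, and the genes that fell 0.04 and -0.63.

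In visceral fat at 24 months the same contrast did not show these rises. By the deposited column names, only some monkeys were measured in both depots, and of the resveratrol monkeys only that of replicate 2. Over the 4 resveratrol and 4 HFS visceral arrays, the genes that rose in subcutaneous fat had a median difference of -0.03, with 91 of 238 above 0, against -0.06 and 42% of all 12917 genes. None of them rose in visceral fat, where 4.08% of genes did and 6.1% passed in either direction. The genes that fell had a median of -0.24 in visceral fat, with 28 of 33 below 0, against 58% of all genes. Of these ALKBH8 fell in visceral fat too (-1.15 ± 0.28, adjusted p = 0.012), where 2.02% of genes did.

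The difference between depots, subcutaneous minus visceral, was tested in a fit of all 45 arrays and passed for 349 genes, 214 higher (1.66%) and 135 lower (1.05%). It passed for 138 of the 238 genes that rose and for 1 of the 33 that fell, RPS3 (-1.47, adjusted p = 0.0302). These genes too were selected on one side of the contrast. It was 2.57 for PCOLCE2 (adjusted p = 0.0332), 2.31 for CAT (adjusted p = 0.0217), 2.15 for DUSP1 (adjusted p = 0.000632), 1.54 for PER2 (adjusted p = 0.017) and 1.496 for LAMP1 (adjusted p = 0.0343). It did not pass for COL3A1 (1.89, adjusted p = 0.135), TIMP2 (0.65, adjusted p = 0.289), USF1 (-0.13, adjusted p = 0.92) or GSK3B (-0.95, adjusted p = 0.0789). The count of 349 ranged from 109 without visceral resveratrol replicate 3 to 926 without visceral resveratrol replicate 1. No label names the array set of the visceral arrays, which were taken as a set by their depot alone. They also come partly from other monkeys, so depot, array set and animal cannot be told apart.

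**Figure D4:**
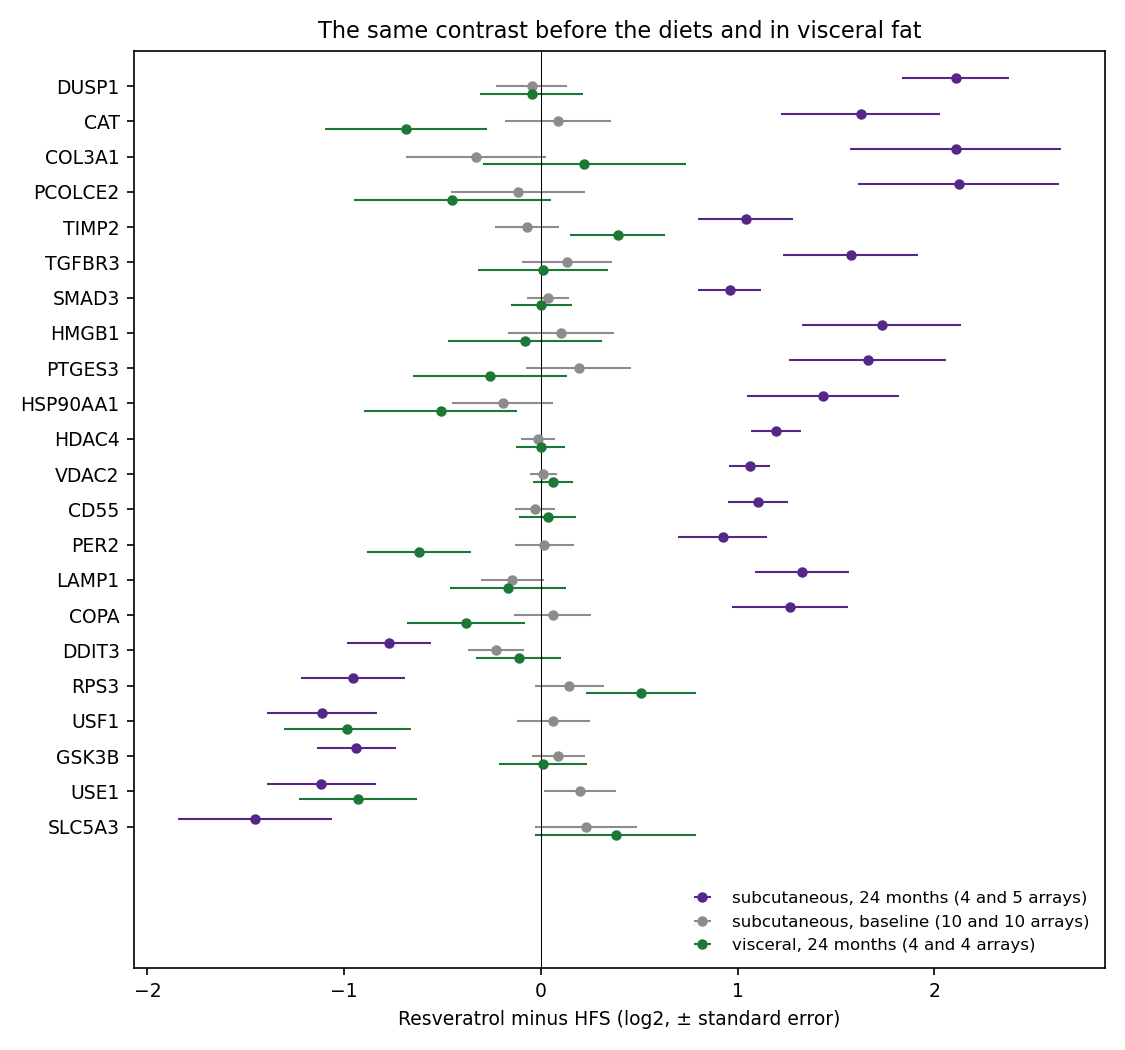
Resveratrol minus HFS (horizontal, log2, with standard errors) for 22 genes (vertical) in subcutaneous fat at 24 months (4 and 5 arrays), in subcutaneous fat before the diets (10 and 10 arrays) and in visceral fat at 24 months (4 and 4 arrays). The baseline values lie near 0, at -0.05 for DUSP1 and 0.09 for CAT, and the visceral values of genes that rose in subcutaneous fat lie on both sides of 0.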

How the data were processed

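RNA of subcutaneous and visceral fat was hybridised to Illumina bead arrays. The deposited table holds each probe's intensity, not normalized, and its detection p-value on each array, exported by the authors with GenomeStudio 1.9.0 per the submitters' processing notes. The authors also deposited a score per probe, which equals the z score of the natural log intensity within an array (largest difference 5e-10 over the subcutaneous arrays). Background subtraction by the authors and a genome build are not given in the sources used here.

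Of 47323 probes, 92 were empty on some arrays and left out. Intensities of all 45 arrays were corrected and quantile normalized by the neqc function (R 4.3.3, limma 3.58.1; offset 16). A probe was kept when at least 1 group had detected it (detection p below 0.05) on at least as many arrays as not, and a gene took its brightest kept probe, which left 12130 genes. One mean per group was fitted over 35 subcutaneous arrays with lmFit and eBayes (29 residual degrees of freedom), with two-sided Benjamini-Hochberg adjustment. All 45 arrays were fitted for the depots. The number of arrays limits the precision, and bead arrays give no read depth. The script was tested on simulated data.

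The rule for named genes takes the 15 largest rises, the 15 largest falls, the 10 smallest p-values, every passing list member, up to 4 members per list with the smallest p, and the set of genes often linked to resveratrol or to the state of fat. The 30 named genes that did not pass are a selection from these, made after their values were seen. The comparison and the gene lists were chosen with earlier results of these data known. Samples were grouped by title. The replicate numbers do not pair the 2 groups: same-numbered arrays came from different animals, and their deviations correlated at -0.25 to -0.03. Alternatives covered the threshold, normalization, background, scores, probe choice, filters, arrays fitted, array weights, the animal and replicate as blocks, detected probes as a covariate and each array left out.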

Additional observations from a re-analysis of the deposited data

Results flagged for a closer look

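A single array stood far from the rest of its group in 13 of the 168 groups of named genes that were examined, by Dixon's criterion at the 95% level. Chance alone marks about 1 in 20 groups. Among the resveratrol arrays the outlying log2 levels were those of TUBA3E (9.20), PBDC1 (5.54), TIMP2 (13.00), LUM (8.27), PTGS2 (5.29), LPL (4.90) and SDHC (8.62). Among the HFS arrays they were those of USF1 (8.97), RSPRY1 (9.02), REL (6.56), CXCL8 (4.47), ECHS1 (11.88) and PPARG (11.67).

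The difference between resveratrol and HFS was not the same in subcutaneous as in visceral fat for 27 named genes, by limma's test of the difference between depots. Subcutaneous minus visceral, in log2 units, was above 0 for PCOLCE2 (2.57), DUSP1 (2.15), PTGES3 (1.92), TUBA3E (2.08), SH3BGRL (1.73), CAT (2.31), TGFBR3 (1.56), PBDC1 (1.56), SACM1L (1.80), HSP90AA1 (1.94), VDAC2 (1), HDAC4 (1.20), ARRDC4 (0.81), LEPROTL1 (1.002), KHDC4 (0.93), RAB9A (0.70), PPIL1 (0.92), PSME3 (0.93), SMAD3 (0.96), PDIA4 (0.41), CD55 (1.07), PER2 (1.54), NR1D2 (1.14), LAMP1 (1.496) and COPA (1.65). It was below 0 for RPS3 (-1.47) and CEBPB (-1.83). These genes were chosen partly on the subcutaneous value. Of them, PBDC1, VDAC2, HDAC4, ARRDC4, LEPROTL1, KHDC4, RAB9A, PPIL1, PSME3, PDIA4 and CD55 were undetected on every subcutaneous HFS array at 24 months. For those genes the test does not support a difference beyond the one in detection. Depot, array set and animal cannot be told apart here.

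The difference at 24 months departed from the difference before the diets for 23 named genes, by limma's test of the change. It was above 0, again in log2 units, for DUSP1 (2.15), TUBA3E (1.74), SH3BGRL (1.83), PBDC1 (1.53), VDAC2 (1.05), HDAC4 (1.21), ARRDC4 (0.86), LEPROTL1 (0.94), KHDC4 (1.04), RAB9A (0.75), PPIL1 (0.78), PSME3 (0.86), SMAD3 (0.92), PDIA4 (0.52), EIF2AK3 (0.87), CD55 (1.14), LAMP1 (1.47) and BET1 (0.52). It was below 0 for USE1 (-1.31), RSPRY1 (-1.09), GSK3B (-1.03), ALKBH8 (-0.97) and EIF3D (-0.74). These genes were chosen partly on the 24-month value. Of them, PBDC1, VDAC2, HDAC4, ARRDC4, LEPROTL1, KHDC4, RAB9A, PPIL1, PSME3, PDIA4, CD55 and BET1 were undetected on every 24-month HFS array. For those genes the test does not support a change beyond the one in detection. The baseline arrays lie largely in another set of arrays, and the part of that in these values was not tested gene by gene.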

How the results depend on the processing

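The count of 271 genes was 426 at an adjusted p below 0.1, 1037 with median scaling (all higher), 793 with the deposited z scores, 624 with array weights (440 higher, 184 lower), and 35 with the number of detected probes as a covariate. It lay between 87 and 288 when single arrays were left out. In the alternatives chosen after the data were seen it was 56 over probes detected on all 9 arrays and 58 without resveratrol replicate 4 and HFS replicate 4. The replicate numbers do not pair the samples, and with the replicate block over the 9 arrays limma called 0 of 11099 genes, with 1393 at an unadjusted p below 0.05. The other settings gave 199 to 371 genes. With only the 9 arrays compared, 127 of 199 genes were shared with the 271. In that fit 30 of the 37 named genes that rose passed, and COL3A1, P4HA1, NDUFB5, CD55, PER2, NR1D2 and BET1 did not. Of the 17 that fell, 4 passed: CEP170P1, USE1, RSPRY1 and EIF3D. The 102 changes from baseline became 284 with array set as a covariate and 156 with the animal as a block, and 42 to 134 with single arrays left out. The 349 depot differences became 109 to 926 with single arrays left out. The baseline count stayed at 0 in the alternatives run. The difference of 1754 detected probes lay between 1452 and 1971 with single arrays left out.

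Direction turned for RPS20 (0.17), IRS1 (0.51) and PPARG (0.29) with median scaling, for IRS1 with z scores (0.14), for PPARG with the mean over probes (0.11) and for ARRDC4 without the filter (-0.20), where another probe stands for the gene. Each of the 54 named genes that passed missed the threshold under at least 1 alternative, since 0 genes passed with the replicate block. For some of them, such as DUSP1, PBDC1, VDAC2 and HDAC4, that block was the only such alternative among those that tested them. The fit restricted to probes detected on every array compared could not test these genes, which some or all HFS arrays did not detect. PBDC1, VDAC2 and HDAC4 were undetected on every HFS array, so their calls do not support a difference beyond the one in detection. The cause of these changes in direction or call between alternatives was not tested. Signal over background limits 110 of the 238 rises, which were undetected on every HFS array.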

Other observations

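LPL, the lipase that releases fatty acids from lipoproteins, had 2 separate levels across the 45 arrays. It was below 6 on 6 arrays, at 4.78 to 5.77, and at 9.07 to 13.81 on the other 39. The 6 arrays are all the arrays of 3 monkeys. In 1 resveratrol monkey LPL read 5.11 in subcutaneous fat before the diet, 4.90 there at 24 months and 5.38 in visceral fat. An HFS monkey read 4.78 before the diet and 4.96 in visceral fat, and another resveratrol monkey read 5.77 before the diet. The threshold of 6 was chosen after the values were seen, and no cause was tested.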
